A study of Mus musculus with 6 samples.

Results

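Genes of fatty acid oxidation and other targets of the nuclear receptor PPARa were examined in liver tissue of 6 mice, each read on 1 single-colour whole-transcript array. The list of 37 genes was chosen by name, from the carnitine shuttle, the mitochondrial and peroxisomal oxidation pathways, ketone body synthesis and known PPARa targets, with the Cyp4a genes left out. Of these, 36 had a probe set with exactly 1 gene symbol, out of 22180 genes with such a probe set, and Acsl1 was not analysed here. The 3 control mice were wild type on the C57BL/6J strain. The 3 ErbB4-/- mice lack the receptor tyrosine kinase ErbB4, except that a transgene (HER4heart) supplies the receptor in the heart, since the mutation alone is lethal in embryos, and this line was backcrossed to C57BL/6J. All 6 mice, controls included, were injected once with DEN, usually short for diethylnitrosamine, a carcinogen of the liver, on postnatal day 14. The protocol text puts dissection at 32 weeks for every mouse, but the sample characteristics count up from 32 through 34 in the controls and from 35 through 37 in the ErbB4-/- mice. By the characteristics, the ErbB4-/- mice were all older than the controls. Sex, whether the piece of liver held tumour, and the hours since the last meal are not given in the sources used here, and the labels say that food was always available. The effects of the lost receptor, the transgene and the line cannot be told apart.

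Fatty acids enter oxidation as acyl-CoA. Mitochondria import long chains through the carnitine shuttle and shorten them in a repeating spiral of dehydrogenation, hydration, a further dehydrogenation and thiolysis, while peroxisomes shorten very long and branched chains with their own set of enzymes. In liver the acetyl-CoA released can be turned into ketone bodies. PPARa is a nuclear receptor that binds fatty acids and, as a partner of RXR, raises transcription of many of these genes, most of all in fasting.

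PPARa and RXR bind pairs of the hexamer AGGTCA spaced by 1 base, a direct repeat called DR1. The 250 bases before the start site were searched on both strands for AGGTCA, any base, AGGTCA with at most 2 mismatches, in RefSeq sequences of build GRCm38.p6. Where a gene had several sequences, the one with the fewest mismatches stood for it, which gave such a gene more chances to match. Of the 36 measured genes, 31 had a sequence, and 5 of these held a match (16.1%), against 3.72% of all 27025 genes with a sequence. Fabp1, which encodes the liver fatty acid-binding protein, had the closest match, with 1 mismatch, from position -67 to -55 before the start site, and only 0.566% of all genes had a match as close. Its 250 bases are shown whole because it was also among the genes whose groups of arrays did not overlap. The other 4 matches are shown with up to 24 bases on each side. Capitals mark the match, 5′ to 3′ on the strand of the gene, and in Fabp1, Acot4 and Etfa the repeat lies on the opposite strand.
Fabp1, chr6:71199629-71199878, plus strand: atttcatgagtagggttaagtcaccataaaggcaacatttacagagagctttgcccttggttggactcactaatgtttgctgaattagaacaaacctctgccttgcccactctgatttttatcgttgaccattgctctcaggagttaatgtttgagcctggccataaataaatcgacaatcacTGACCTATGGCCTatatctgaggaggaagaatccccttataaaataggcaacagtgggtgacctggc
Acot4, chr12:84038342-84038378, plus strand: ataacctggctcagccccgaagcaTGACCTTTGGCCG
Creb3l3, chr10:81092764-81092824, minus strand: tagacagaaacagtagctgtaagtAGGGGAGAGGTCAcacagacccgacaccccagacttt
Echs1, chr7:140116468-140116528, minus strand: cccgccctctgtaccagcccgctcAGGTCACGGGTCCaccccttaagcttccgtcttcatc
Etfa, chr9:55512284-55512344, minus strand: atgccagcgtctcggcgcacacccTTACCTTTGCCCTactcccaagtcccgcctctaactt
A match is a description of these letters and was not tested for binding.

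Values are log2 levels of a probe set on an array, and each probe set has its own scale, so a level is compared only between arrays and not between genes. Where 3 values are given for a group, they are replicates 1, 2 and 3 in that order. Differences are ErbB4-/- minus control, with their standard error (SE), and were tested with limma over all 22180 genes, with Benjamini-Hochberg adjustment. The arrays had medians between 4.83 and 4.86 and correlated between 0.983 and 0.994 across genes. Markers of hepatocytes were high on all arrays, with a mean over 13 markers of 12.72 to 12.81 in control and 12.66 to 12.73 in ErbB4-/- liver. Markers of muscle and heart, of adipocytes and of cholangiocytes had means between 4.50 and 4.92 on every array. ErbB4-/- replicate 3 lay farthest out on the first principal component of all genes, which held 36.1% of the variance. Control replicate 1 differed from the other 5 arrays in sex-biased liver genes. It measured 2.52 for Hsd3b5, a male-biased steroid dehydrogenase gene, against 8.70 to 9.88 on the others, and 12.59 for Cyp2b9, a female-biased cytochrome P450 gene, against 7.84 to 8.46.

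Values of these genes were mostly higher in ErbB4-/- liver, by small amounts, and none passed the test. The difference was above 0 for 31 of the 36 genes and below 0 for Crat, Etfa, Acox2, Acot3 and Acot4, against 54.7% above and 45.3% below 0 among all genes. Below 0 were also 47.9% of genes at or above the median level, and 53.4% of genes above the 80th percentile of level were above 0. The median difference over the 36 genes was 0.14, against 0.01 over all genes, and single genes ranged from -0.27 for Acot3 to 0.98 for Vnn1. None of the 36 had an adjusted p under 0.05 (limma, lowest adjusted p = 0.760), in a comparison that called 1 gene in all (0.00451%). An unadjusted p under 0.05 was reached by 8 of the 36 genes, all with higher values in ErbB4-/- liver (limma). Among all genes 5.72% reached it, 2.77% with higher and 2.94% with lower values, and 3.63% of genes above the 80th percentile of level did so with higher values. The groups of arrays did not overlap for 10 genes, 9 of them with higher and 1 with lower values in ErbB4-/- liver, against 8.33% of all genes, 4.52% with higher and 3.81% with lower values. Among genes at or above the median level it was 11% in either direction, and 6.45% of genes above the 80th percentile of level had higher values without overlap.

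ErbB4-/- replicate 3 had the highest value of all 6 arrays for 23 of the 36 genes, against 23.6% of all genes. The mean over the 36 genes was 9.54, 9.34 and 9.46 in control and 9.50, 9.58 and 9.76 in ErbB4-/- liver. Control replicate 1 thus lay above ErbB4-/- replicate 1, and the groups overlapped. Without ErbB4-/- replicate 3 the median difference was 0.043, and 25 of 36 genes had higher values in ErbB4-/- liver, against 53.6% of all genes. Without control replicate 2, which was the lowest array for 15 of the genes, 27 of 36 were higher. Without control replicate 1 and ErbB4-/- replicate 3 together the median difference was 0.11 and 29 of 36 were higher. The count of 8 at an unadjusted p under 0.05 became 3 to 6 when 1 array was left out. It was 3 without control replicate 3 or without ErbB4-/- replicate 2, 4 without control replicate 2 and 5 without ErbB4-/- replicate 3. With the week of dissection from the characteristic as a covariate, the median difference turned to -0.07 and 21 of 36 genes had a difference below 0. These weeks rise with the replicate number in each group and do not overlap between the groups. The fit therefore extrapolates beyond either group and cannot tell age from replicate order or genotype.

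**Figure D1:**
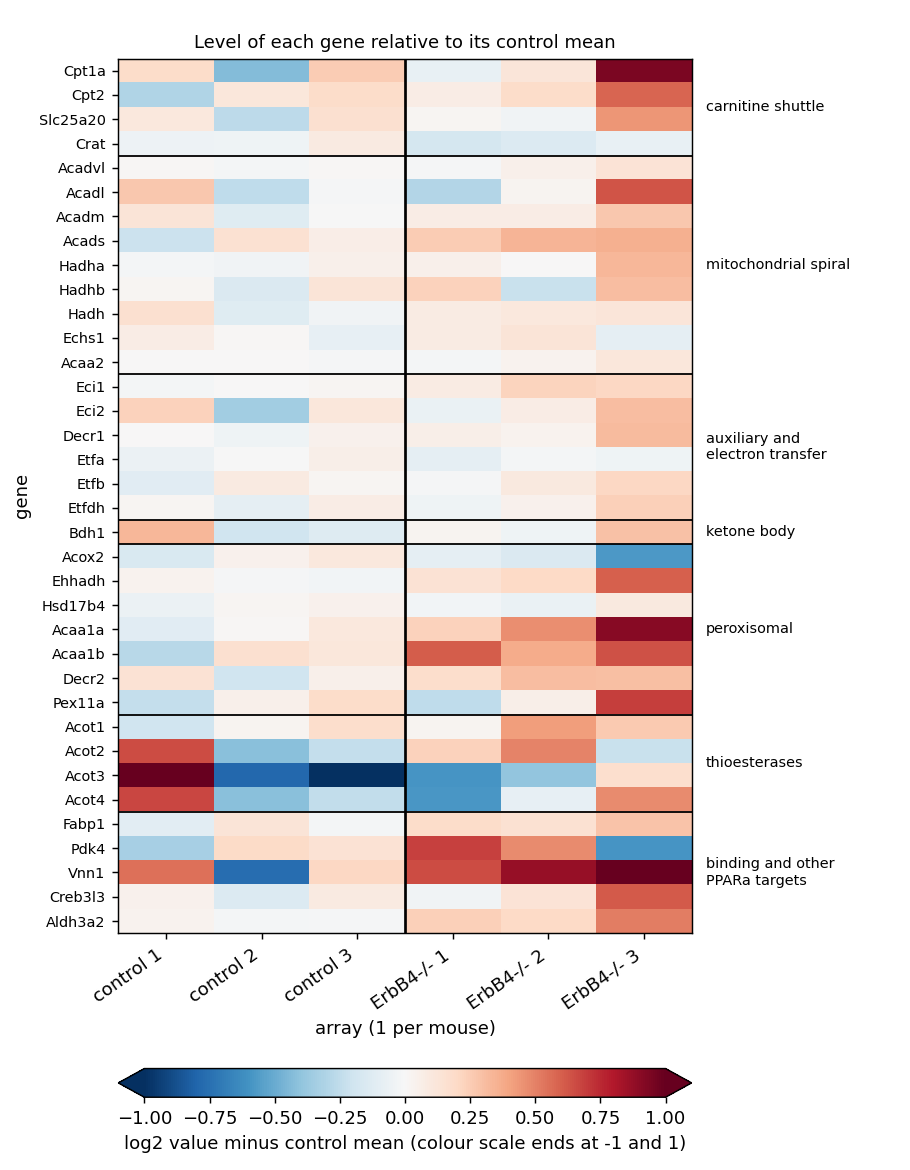
Log2 value of each of the 36 genes (rows, grouped by compartment) on each of the 6 arrays (columns), minus the mean of the 3 controls of that gene. Colours run from -1 (blue) to 1 (red), and the column of ErbB4-/- replicate 3 holds the highest value in 23 rows.

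The carnitine shuttle carries long acyl groups across the mitochondrial membranes. Its 4 genes had a median difference of 0.21, which was 0.0045 without ErbB4-/- replicate 3 and 0.061 without control replicate 2. Cpt1a, the rate-controlling enzyme of entry on the outer membrane, measured 10.90, 10.28 and 10.97 in control and 10.64, 10.84 and 11.66 in ErbB4-/- liver. Only ErbB4-/- replicate 3 lay above all controls, and the difference of 0.33 had a 95% interval from -0.48 to 1.13 (limma, adjusted p = 0.782). It was 0.02 without ErbB4-/- replicate 3 and 0.11 without control replicate 2. Cpt2, which returns the acyl group to CoA on the inner membrane, measured 9.16, 9.57 and 9.64 in control and 9.53, 9.64 and 10.03 in ErbB4-/- liver, with a difference of 0.28. Slc25a20, the carrier that exchanges acylcarnitine for carnitine, differed by 0.14 with a 95% interval from -0.29 to 0.57. In both, ErbB4-/- replicate 3 was again the highest array, and without it the differences were 0.13 for Cpt2 and -0.01 for Slc25a20, which turned in sign. Crat, which forms acetylcarnitine from short acyl-CoA, was the one gene of the list with lower values in all ErbB4-/- arrays than in all controls. It measured 7.69, 7.70 and 7.83 in control and 7.56, 7.61 and 7.66 in ErbB4-/- liver. The difference was -0.13 (SE 0.06) and did not pass (limma, adjusted p = 0.760). A second, dimmer probe set of Crat had overlapping groups and a difference of -0.06. It measured 5.67, 5.50 and 5.57 in control and 5.54, 5.60 and 5.41 in ErbB4-/- liver.

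All 9 genes of the mitochondrial spiral had a difference above 0, with a median of 0.11 and a range from 0.04 to 0.32. The median was 0.027 without ErbB4-/- replicate 3 and 0.047 without control replicate 2. Acads, the acyl-CoA dehydrogenase for short chains, was the one whose groups did not overlap. It measured 8.98, 9.35 and 9.26 in control and 9.45, 9.54 and 9.55 in ErbB4-/- liver. The difference was 0.32 (SE 0.11, limma, unadjusted p = 0.0262 and adjusted p = 0.760). The ErbB4-/- arrays lay closer together than the controls, of which replicate 1 was lowest. Acadm, the dehydrogenase for medium chains, measured 11.89, 11.64 and 11.76 in control and 11.84, 11.84 and 12.03 in ErbB4-/- liver, so that control replicate 1 lay within the ErbB4-/- range and the difference of 0.14 (SE 0.09) did not pass. Without ErbB4-/- replicate 3, or without control replicate 2, it was 0.08. Acadl, the dehydrogenase for long chains, varied most in this compartment, from 10.001 in ErbB4-/- replicate 1 to 10.92 in ErbB4-/- replicate 3, with controls between 10.04 and 10.56 and a difference of 0.12. That difference turned to -0.13 without ErbB4-/- replicate 3. Acadvl, which acts on very long chains, was tighter, at 10.33 ± 0.02 in control and 10.38 ± 0.07 in ErbB4-/- liver (SD, n = 3 each). The 95% interval of its difference ran from -0.08 to 0.20.

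Hadha and Hadhb, neighbouring genes for the subunits of the mitochondrial trifunctional protein, differed by 0.13 (95% interval from -0.12 to 0.37) and 0.11 (from -0.29 to 0.51). The single probe set of Hadhb was dim, with means of 5.16 in control and 5.27 in ErbB4-/- liver, at percentile 49.2 of level. It may read background. Hadh, the 3-hydroxyacyl-CoA dehydrogenase for shorter chains, differed by 0.10, and Echs1, the hydratase for short chains, by 0.04. Acaa2, the mitochondrial 3-ketoacyl-CoA thiolase, measured 11.75, 11.75 and 11.73 in control and 11.73, 11.78 and 11.86 in ErbB4-/- liver. The difference was 0.04, with a 95% interval from -0.09 to 0.17. These 5 genes had overlapping groups, and none passed. Without ErbB4-/- replicate 3 the differences were 0.03 for Hadha, 0.006 for Hadhb, 0.09 for Hadh, 0.11 for Echs1 and 0.008 for Acaa2.

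Unsaturated chains need auxiliary enzymes, and the electrons of the dehydrogenases pass through the electron transfer flavoprotein. The 6 genes of these steps had a median difference of 0.10, which was 0.021 without ErbB4-/- replicate 3. Eci1, a mitochondrial enoyl-CoA isomerase, measured 9.29, 9.31 and 9.33 in control and 9.39, 9.53 and 9.52 in ErbB4-/- liver. The groups did not overlap, and the difference of 0.17 (SE 0.06) did not pass (limma, unadjusted p = 0.0275 and adjusted p = 0.760). Eci2, an isomerase found in mitochondria and peroxisomes, had the largest spread of the 6, with 9.83, 9.25 and 9.71 in control and 9.53, 9.67 and 9.91 in ErbB4-/- liver. Its difference of 0.11 was 0.001 without ErbB4-/- replicate 3 and -0.07 without control replicate 2. Decr1, the mitochondrial dienoyl-CoA reductase, differed by 0.14 and its highest value, 8.08, was that of ErbB4-/- replicate 3, without which it was 0.05. The flavoprotein subunit genes Etfa and Etfb differed by -0.05 and 0.10, and Etfdh, which passes the electrons on to ubiquinone, by 0.08, each with a 95% interval that includes 0. Bdh1, which interconverts the ketone bodies acetoacetate and 3-hydroxybutyrate, measured 8.73, 8.20 and 8.27 in control and 8.42, 8.36 and 8.69 in ErbB4-/- liver. Its groups overlapped, with control replicate 1 the highest array, and its difference of 0.09 had a 95% interval from -0.33 to 0.51. It was 0.25 without control replicate 1 and -0.01 without control replicate 2 or ErbB4-/- replicate 3.

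Peroxisomal genes held 4 of the 10 genes whose groups were apart. Of 7 genes, 6 had a difference above 0, and the median difference was 0.26. The mean over the 7 genes was 9.58, 9.69 and 9.76 in control and 9.79, 9.85 and 10.06 in ErbB4-/- liver, with every ErbB4-/- array above every control. Without ErbB4-/- replicate 3 the median difference was 0.17 and 4 of the 7 genes had a difference above 0, and with dissection week as a covariate the median was -0.10. Acaa1b, a peroxisomal 3-ketoacyl-CoA thiolase that cleaves the shortened chain, had the smallest p of the whole list. It measured 9.57, 10.01 and 9.96 in control and 10.45, 10.22 and 10.49 in ErbB4-/- liver. The difference was 0.54, or 1.45-fold (SE 0.14, limma, unadjusted p = 0.0105 and adjusted p = 0.760). All 3 ErbB4-/- arrays lay above the controls, and control replicate 1 was the lowest. Acaa1a, its close paralog, measured 7.57, 7.70 and 7.79 in control and 7.92, 8.15 and 8.60 in ErbB4-/- liver. The difference was 0.53, or 1.45-fold (SE 0.18, limma, unadjusted p = 0.0275 and adjusted p = 0.760). ErbB4-/- replicate 3 was the highest array, and the difference was 0.35 without it. Whether the probe sets separate the paralogs was not examined here.

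Ehhadh, the bifunctional enzyme of the inducible peroxisomal pathway and a classical PPARa target, measured 9.85, 9.80 and 9.78 in control and 9.95, 10.01 and 10.41 in ErbB4-/- liver. The controls lay close together and below all ErbB4-/- arrays, and the difference was 0.31 (SE 0.13, limma, unadjusted p = 0.0538 and adjusted p = 0.760). Without ErbB4-/- replicate 3 it was 0.17. Decr2, the peroxisomal dienoyl-CoA reductase, measured 11.22, 10.87 and 11.12 in control and 11.25, 11.39 and 11.37 in ErbB4-/- liver, where ErbB4-/- replicate 1 exceeded the highest control by little. The difference was 0.26 (SE 0.10, limma, unadjusted p = 0.0465 and adjusted p = 0.760). Pex11a, a factor of peroxisome division induced through PPARa, measured 7.84, 8.13 and 8.27 in control and 7.83, 8.14 and 8.77 in ErbB4-/- liver, and without ErbB4-/- replicate 3 its difference of 0.17 turned to -0.10. Hsd17b4, the bifunctional enzyme for branched chains and bile acid side chains, differed by 0.00 with a 95% interval from -0.16 to 0.16. Acox2, the oxidase for branched chains and bile acid intermediates, had the opposite sign. It measured 9.94, 10.14 and 10.20 in control and 9.9998, 9.95 and 9.52 in ErbB4-/- liver, a difference of -0.27 that did not pass (limma, adjusted p = 0.760). It was -0.12 without ErbB4-/- replicate 3. The lowest of the 6 values was that of ErbB4-/- replicate 3, the array with the highest Ehhadh and Acaa1a.

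**Figure D2:**
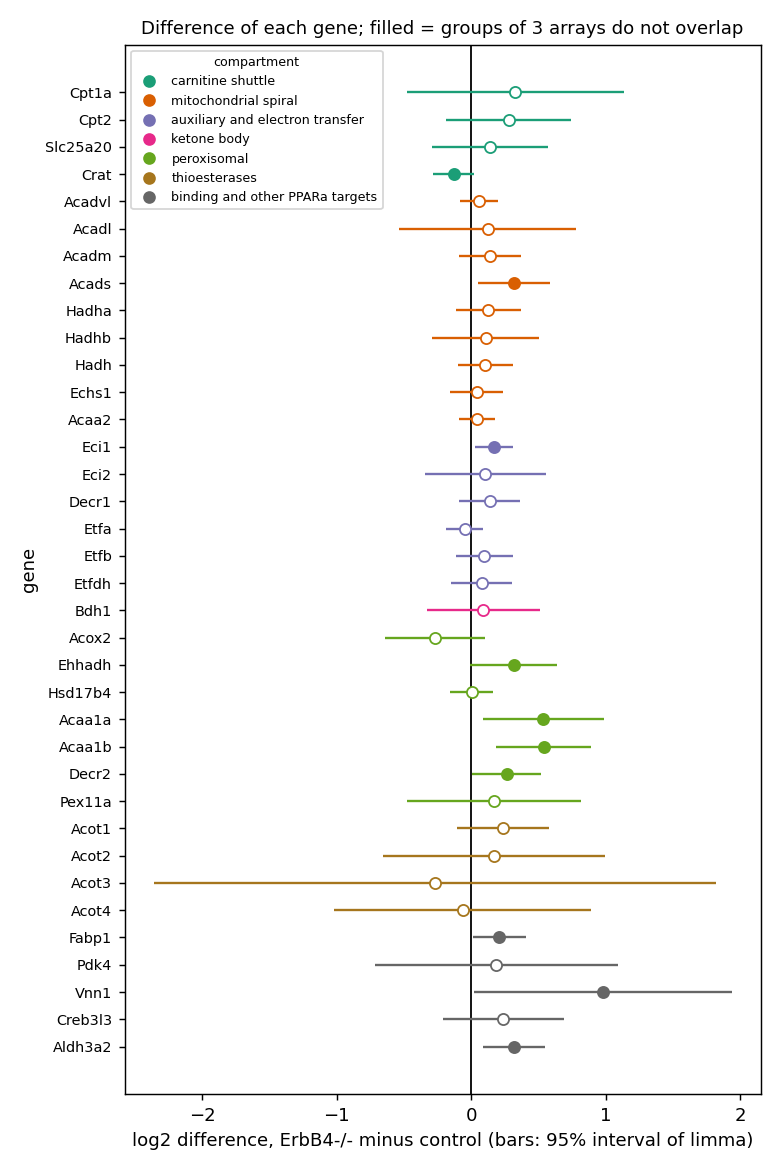
Log2 difference of each gene, ErbB4-/- minus control, with its 95% interval from limma, coloured by compartment. Filled points mark the 10 genes whose groups of 3 arrays do not overlap, of which Crat alone lies below 0, and the widest interval is that of Acot3, from -2.36 to 1.82.

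Acyl-CoA thioesterases release free fatty acids from acyl-CoA. Acot2 (mitochondrial), Acot1 (cytosolic), Acot4 and Acot3 (both peroxisomal) are paralogs that follow each other on chromosome 12 in the RefSeq annotation, and whether their probe sets separate them was not examined here. Acot1 measured 6.57, 6.79 and 6.94 in control and 6.80, 7.18 and 7.03 in ErbB4-/- liver, with control replicate 1 the lowest array. In the other three, control replicate 1 was the highest array. Acot2 measured 8.81, 7.74 and 7.92 in control and 8.39, 8.65 and 7.93 in ErbB4-/- liver. Acot3 measured 8.40 in control replicate 1, 5.69 and 5.33 in the other controls and 5.88, 6.08 and 6.64 in ErbB4-/- liver. Acot4 measured 7.44, 6.35 and 6.53 in control and 6.20, 6.69 and 7.25 in ErbB4-/- liver. Control replicate 1 is also the array that stood apart in sex-biased genes, and Acot3 was itself on the list of female-biased genes. The differences were 0.23 for Acot1, 0.17 for Acot2, -0.27 for Acot3 and -0.06 for Acot4, and none passed. Without control replicate 1 the difference was 0.69 for Acot3 and 0.27 for Acot4, both turned in sign, and the median of the 4 genes went from 0.05 to 0.38. A second, dimmer probe set of Acot4 also had its highest value, 6.12, in control replicate 1.

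**Figure D3:**
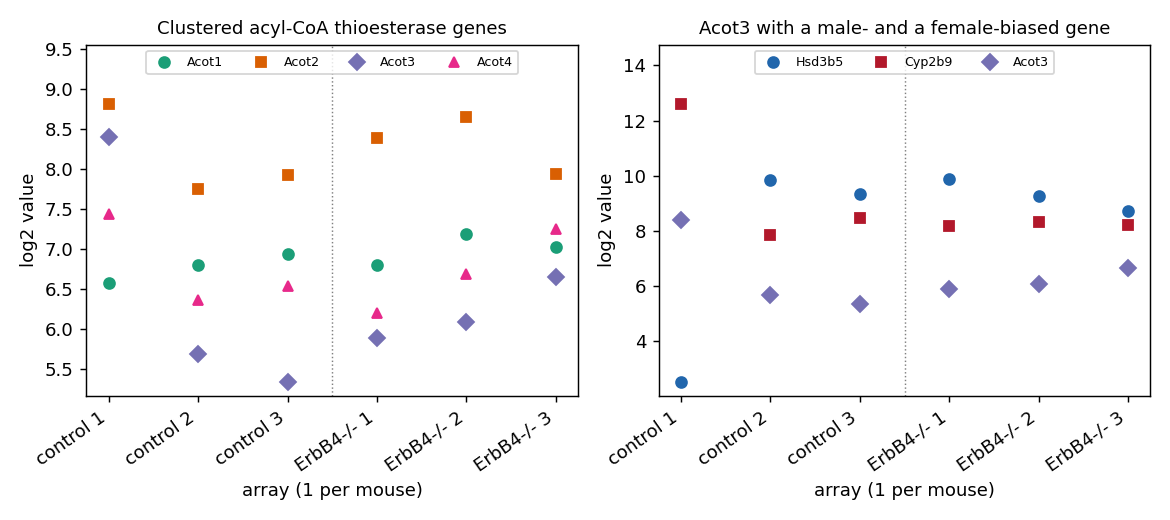
Log2 values of Acot1, Acot2, Acot3 and Acot4 (left) and of Acot3 beside Hsd3b5 and Cyp2b9 (right) on each of the 6 arrays. Control replicate 1 is highest for Acot2, Acot3, Acot4 and Cyp2b9 and lowest for Acot1 and Hsd3b5.

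The remaining 5 genes, which bind fatty acids or are PPARa targets outside the oxidation pathways, all had a difference above 0, with a median of 0.24. Their mean was 9.55, 9.39 and 9.59 in control and 9.85, 9.88 and 9.96 in ErbB4-/- liver, which do not overlap. On leaving out 1 array the median was between 0.22 and 0.35, and with dissection week as a covariate it was 0.15. Vnn1, a pantetheinase that responds to PPARa in liver, had the largest difference of the list. It measured 8.29, 6.98 and 7.94 in control and 8.39, 8.61 and 9.16 in ErbB4-/- liver. The difference was 0.98, or 1.97-fold (SE 0.38, limma, unadjusted p = 0.0462 and adjusted p = 0.760). Control replicate 2 lay far below the other controls, and without that array the difference was 0.60. Aldh3a2, a fatty aldehyde dehydrogenase, measured 9.80, 9.74 and 9.75 in control and 10.01, 9.97 and 10.28 in ErbB4-/- liver. The difference was 0.32 (SE 0.09, limma, unadjusted p = 0.0158 and adjusted p = 0.760). The controls were close together and below all ErbB4-/- arrays. A second probe set of Aldh3a2, with a lower mean, also kept the groups apart, at 7.57, 7.43 and 7.67 in control and 8.15, 8.32 and 9.39 in ErbB4-/- liver. Its difference of 1.06 was larger than that of the brighter probe set and did not pass among all rows of the table either (limma, adjusted p = 0.814).

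Fabp1, with the DR1 match shown above, measured 12.40, 12.63 and 12.48 in control and 12.69, 12.65 and 12.79 in ErbB4-/- liver. The groups were barely apart, with control replicate 2 just below ErbB4-/- replicate 2, and the difference was 0.21 (SE 0.08, limma, unadjusted p = 0.0412 and adjusted p = 0.760). The other 4 genes with a match, Acot4, Creb3l3, Echs1 and Etfa, had differences of -0.06, 0.24, 0.04 and -0.05, and their groups overlapped. Creb3l3, a liver transcription factor of the fasting response, measured 10.62, 10.44 and 10.67 in control and 10.54, 10.72 and 11.19 in ErbB4-/- liver, where only ErbB4-/- replicates 2 and 3 exceeded the controls. Its difference was 0.05 without ErbB4-/- replicate 3. Pdk4, which restrains pyruvate dehydrogenase in fasting, had another order of arrays. It measured 6.62, 7.15 and 7.10 in control and 7.64, 7.43 and 6.37 in ErbB4-/- liver, so that ErbB4-/- replicate 3, the highest array for most of the list, was the lowest for Pdk4. Without that array its difference went from 0.19 to 0.58, and without ErbB4-/- replicate 1 it turned to -0.06.

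**Figure D4:**
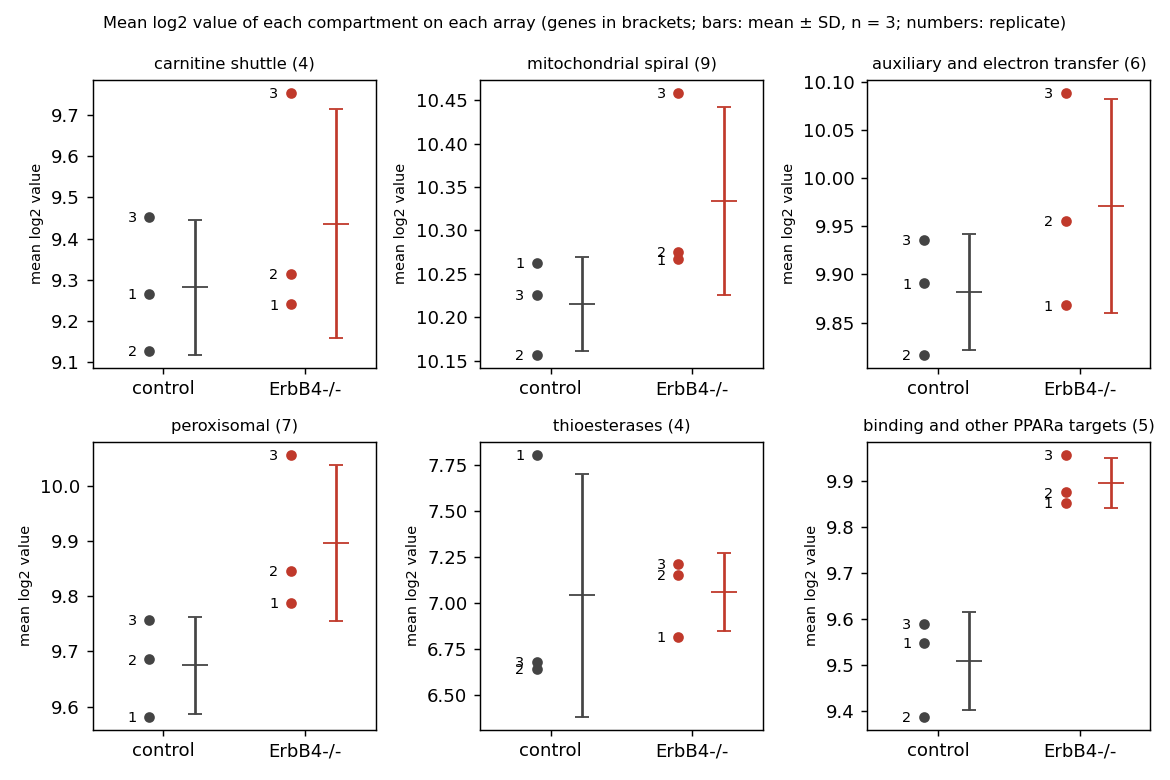
Mean log2 value of the genes of each compartment on each array, with the mean and SD of each group (n = 3), for the 6 compartments with more than 1 gene. Every ErbB4-/- array lies above every control in the peroxisomal panel, in the panel of binding and other targets and, narrowly, in the spiral, while the groups overlap in the other 3, and control replicate 1 stands apart among the thioesterases.

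Other genes of the pathway were described from further lists, and none of their genes passed over all genes (limma). Among all genes 54.7% had a difference above 0, 5.72% had an unadjusted p under 0.05 (limma) and 8.33% had groups without overlap. These shares stand beside the counts of every list below. Ppara, the receptor itself, measured 9.04, 8.60 and 8.86 in control and 8.84, 8.75 and 9.49 in ErbB4-/- liver, a difference of 0.20 (limma, adjusted p = 0.806). Its groups overlapped, and ErbB4-/- replicate 3 was again the highest array, without which the difference turned to -0.03. Of 13 genes for PPAR receptors and cofactors, 7 had a difference above 0, with a median of 0.01 and 1 at an unadjusted p under 0.05. The smallest p among them was that of Lpin1, a phosphatidate phosphatase and coactivator, with -0.82, followed by the mitochondrial deacetylase gene Sirt3 with 0.45, which was 0.25 without ErbB4-/- replicate 3. Of 29 further oxidation genes, 24 had a difference above 0, with a median of 0.14, and 5 had an unadjusted p under 0.05. Acad10, an acyl-CoA dehydrogenase family member, differed by 0.47 and Hacl1, a peroxisomal lyase of alpha-oxidation, by -0.50, and both had groups that did not overlap. Ketone body genes, 6 measured, had a median of -0.02 and 0 at an unadjusted p under 0.05, with the smallest p for Oxct1 (-0.14) and Slc16a7 (-0.33). Oxct1 was at -0.05 without ErbB4-/- replicate 3 and Slc16a7 at -0.05 without control replicate 1. Genes of fatty acid uptake and activation, 15 measured, had a median of 0.04 and 0 at an unadjusted p under 0.05, with the smallest p for the transporter and acyl-CoA synthetase gene Slc27a2 (0.28) and for Acbd3 (0.12).

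Of 26 other PPARa targets, 19 had a difference above 0, with a median of 0.10. An unadjusted p under 0.05 was reached by 1 of the 26, against 5.72% of all genes (limma). That gene was Fgf21, a hormone that liver secretes in fasting, which measured 6.16, 5.85 and 5.83 in control and 5.79, 5.25 and 4.99 in ErbB4-/- liver. It was lower in all ErbB4-/- arrays than in any control, and the difference of -0.61 did not pass (limma, adjusted p = 0.760). Its probe set was dim, at percentile 56.0 of level, and may read background. The lipase gene Pnpla2 had the next smallest p, with 0.30. The 4 Cyp4a genes measured, which encode fatty acid omega-hydroxylases, all had a difference above 0 and a median of 1.22, with 1.79 for Cyp4a12b and 0.65 for Cyp4a31 having the smallest p, and 0 at an unadjusted p under 0.05. Cyp4a12a, a male-biased gene, was among them, and the mean of the 4 was lowest in control replicate 1, at 7.33 against 8.19 to 9.58 on the other arrays. Without control replicate 1 the median of the 4 was 0.76, with 0.61 for Cyp4a12b, 0.18 for Cyp4a12a, 0.91 for Cyp4a31 and 1.38 for Cyp4a14. Cyp4a14 was itself highest in control replicate 1, at 11.91, and its difference of 0.45 turned to -0.54 without control replicate 2. Of 13 genes of peroxisome biogenesis, 10 had a difference above 0, with a median of 0.08 and 1 at an unadjusted p under 0.05. This was Pex11g, a relative of Pex11a, at 7.07, 7.56 and 7.41 in control and 7.93, 7.72 and 7.92 in ErbB4-/- liver, which do not overlap, and Pex6 was next with 0.28. Without control replicate 1 the median of this list was 0.01 and 8 of the 13 were above 0.

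Genes that follow fasting and feeding were listed because feeding state moves the same pathway. Of 15 measured, 13 had a difference below 0, both fasting genes and lipogenic genes, with a median of -0.22. Among all genes 45.3% were below 0. An unadjusted p under 0.05 was reached by 1 of the 15, against 5.72% of all genes (limma). That gene was Igfbp1, an insulin-repressed secreted protein gene, at 11.53, 10.76 and 11.87 in control and 9.67, 10.30 and 9.40 in ErbB4-/- liver. The difference was -1.60, with groups that do not overlap (limma, adjusted p = 0.760). Acaca, an enzyme of fatty acid synthesis, was next with -0.22. Without control replicate 2 the median was -0.04, 7 of the 15 were above 0, and the difference was -1.91 for Igfbp1 and -0.08 for Acaca. Igfbp1 and the dim Fgf21 were thus lower in the ErbB4-/- arrays while Ehhadh, Acaa1b and Vnn1 were higher. Other genes that respond to fasting had overlapping groups and went both ways. Angptl4 (0.63), Creb3l3 (0.24), Pdk4 (0.19) and G6pc (0.09) were above 0. Ppargc1a (-0.39), Pck1 (-0.22) and Tat (-0.11) were below 0. The part of feeding state in these values was not tested.

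Markers of macrophages, neutrophils, endothelial cells and stellate cells had lower values in ErbB4-/- liver, and none of them passed (limma). Among all genes 45.3% had a difference below 0, and 2.94% had lower values at an unadjusted p under 0.05 (limma). All 14 macrophage markers had lower values in ErbB4-/- liver, 12 of them at an unadjusted p under 0.05, with mean levels of 8.44 to 8.68 in control and 7.20 to 8.005 in ErbB4-/- liver and the smallest p for Cd14 (-0.98) and Cd163 (-1.35). Their median difference was -0.75. All 10 neutrophil markers were lower, 8 at an unadjusted p under 0.05, with means of 5.28 to 7.31 and 4.55 to 4.95 and the smallest p for Ly6g (-1.17) and Csf3r (-0.61). Their median difference was -2.07. Ly6g was dim, at percentile 20.0 of level, and may read background. S100a9, a neutrophil calcium-binding protein gene, differed by -2.49. All 10 endothelial markers were lower, 6 at an unadjusted p under 0.05, with means of 8.26 to 8.68 and 7.05 to 8.25, the smallest p for Lyve1 (-1.57) and Stab1 (-0.28), and a median difference of -0.79. All 10 stellate cell markers were lower, 2 at an unadjusted p under 0.05, with means of 7.71 to 7.89 and 7.24 to 7.81, the smallest p for Ecm1 (-0.46) and Dcn (-0.75), and a median difference of -0.28. The lowest macrophage, endothelial and stellate cell means were those of ErbB4-/- replicate 3, the array with the highest oxidation genes. Without it the median difference was -0.68 for macrophage, -0.39 for endothelial and -0.11 for stellate cell markers. Hepatocyte markers had a median difference of -0.03, with 11 of 13 below 0, and Hnf4a (-0.30) and Hpx (-0.25) had the smallest p. Without ErbB4-/- replicate 3 their median was again -0.03, and 7 of the 13 were below 0. Fewer cells of a type and less RNA per cell cannot be told apart in whole tissue, and the part of these markers in the oxidation values was not tested.

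Markers of cholangiocytes, adipocytes, and muscle and heart had medians of 0.01, 0.04 and 0.004, with 0, 0 and 2 genes at an unadjusted p under 0.05. The smallest p in these lists belonged to Tspan8 (0.47) and Cftr (0.04), to Adipoq (0.12) and Plin1 (0.20), and to Acta1 (0.33) and Myh1 (0.33). Male-biased liver genes, 12 measured, all had a difference above 0 and a median of 1.00, with Cyp2u1 (1.40) and Mup21 (2.16) first and 0 at an unadjusted p under 0.05. Of 11 female-biased genes, 10 had a difference below 0, with a median of -0.34, Cyp3a44 (-0.65) and Cyp2b10 (-0.54) first and 2 at an unadjusted p under 0.05. The mean of the male-biased genes was 7.24 in control replicate 1 and 10.24 to 10.43 on the other 5 arrays, and that of the female-biased genes 7.07 against 5.42 to 5.76. Without that array 6 of the 12 male-biased genes were above 0, with a median of 0.03, and 7 of the 11 female-biased genes were above 0, with a median of 0.06. Without it Cyp2u1 was at 0.66 and Mup21 at 0.45.

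**Figure D5:**
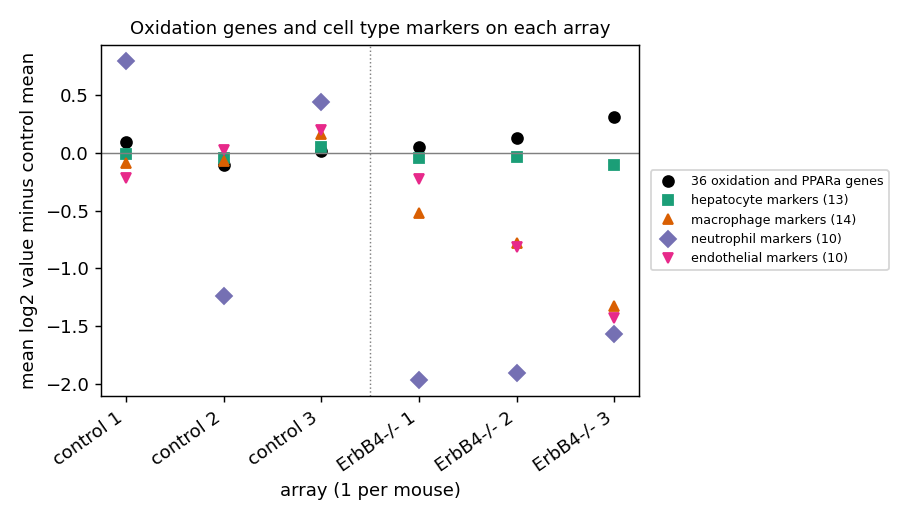
Mean log2 value of the 36 oxidation and PPARa genes and of marker lists for hepatocytes, macrophages, neutrophils and endothelial cells on each array, each minus its control mean (number of genes in brackets). The oxidation genes are highest and the macrophage and endothelial markers lowest in ErbB4-/- replicate 3, while hepatocyte markers stay near 0 on all 6 arrays.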

How the data were processed

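Liver RNA of 6 mice was extracted with Trizol and labelled with biotin for Affymetrix whole-transcript arrays, per the labels' protocols. The authors deposited log2 values, 1 per probe set and array, already normalized. The log base was read from the values. How the authors corrected background, normalized and summarised probes is not stated in the sources used. The 41345 probe sets comprise 23521 named for 1 gene, 1814 for more than 1 and 16010 for none in the annotation used. The probe set with the highest mean stood for a gene, and dim probe sets were kept. Differences were fitted with limma 3.58.1 in R 4.3.3, two-sided, with genotype as the only term and Benjamini-Hochberg adjustment over 22180 genes at 0.05. With 3 arrays a group, precision is low: over all genes, the SE had a median of 0.0997.

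The fit was tested on simulated data first. The compartments, the 18 further lists (223 of 246 entries measured) and the rule for named genes were chosen with earlier results of these data known. By that rule, values per array are given for genes whose groups do not overlap, for the smallest p and the widest range in each compartment, and for textbook genes of the pathway. Of the other lists, Ppara and the 2 genes with the smallest p are named, with Hsd3b5, Cyp2b9 and S100a9 to describe arrays. Chosen after their values were seen were Acox2, Pex11a, Acot2, Acot4, Cpt2, Acaa2, Acadvl and Creb3l3. The same holds for Angptl4, G6pc, Ppargc1a, Pck1 and Tat of the further lists. The labels do not state whether the same replicate numbers pair mice, and the main fit treated the arrays as unpaired. The deviations of same-numbered arrays correlated at -0.10, 0.03 and -0.05, which cannot settle it with 3 arrays a group. Figures were drawn with matplotlib 3.10.9.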

Additional observations from a re-analysis of the deposited data

How the results depend on the processing

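Precision is limited by 3 arrays per group, and dim probe sets may read background. No gene of the list or of the further lists passed under any of the 17 alternatives, namely a further quantile normalization, median centring, dropping genes below the median level, averaging probe sets, testing every row, limma's trend with a robust prior, weights per array, the replicate block, the week of dissection, a threshold of 0.1 and leaving out arrays. Counts of non-overlapping groups and of unadjusted p, single differences and further lists on leaving out arrays were added after seeing the data. The count over all genes was 1 and went to 0 with every row, with the replicate block, with the week, and 0 on leaving out any 1 array, or both of control replicate 1 and ErbB4-/- replicate 3. With the replicate block the differences are the same by construction, with a median of 0.14. With weights per array the median was 0.088 over the list and 0.12 for the shuttle. With the week as a covariate the median was -0.0708 over the list, -0.39 for the carnitine shuttle, -0.0328 for the spiral, -0.13 for auxiliary and electron transfer genes, -0.10 for peroxisomal genes and 0.50 for thioesterases, and 18 of 36 genes turned sign. The cause was not tested, and weeks do not overlap between the genotypes in this fit. Leaving out 1 array gave medians from 0.043 to 0.19 over the list, from 0.0045 to 0.30 for the shuttle, from 0.027 to 0.17 for the spiral, from 0.021 to 0.17 for auxiliary and electron transfer genes, from -0.01 to 0.25 for Bdh1, from 0.17 to 0.38 for peroxisomal genes, from -0.16 to 0.38 for thioesterases and from 0.22 to 0.35 for binding and other targets.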
